A study of Gallus gallus with 9 samples.

Results

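The comparison described here is that of gonadal primordial germ cells (PGCs), the precursors of eggs and sperm, with cultured chicken embryonic fibroblasts (CEFs). It used the 3 PGC libraries and the 3 CEF libraries, 6 of the 9 whole-transcriptome libraries of the study, and every gene with a count in them or in the 3 EGK.X blastoderm libraries, that is 22698 of the 24356 genes in the count tables. All groups were untreated White Leghorn chickens with no transgene or mutation in their descriptions. PGCs came from gonads at Hamburger and Hamilton (HH) stage 28 and were enriched with magnetic beads for the surface antigen SSEA-1. The study also stained sorted cells of each replicate for SSEA-1 to check that they were PGCs. Each PGC library is thus an enriched fraction, whose purity was not measured here. PGC replicates pooled material numbered 484, 658 and 684, which the methods of the study give as gonads and the sample descriptions set beside embryos. Neither says which number belongs to which replicate. CEFs came from embryos of the same HH stage 28 (embryonic day 6), with 5 embryos for each replicate, after organs and limbs were taken off, and had grown in serum to passage 2. EGK.X blastoderms, the embryos of freshly laid eggs, were used as a further reference with 10 embryos for each replicate. PGCs were sorted from fresh tissue and CEFs were adherent cultures, so that cell type and culture cannot be told apart. The sex of the embryos is not given in the sources used here.

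PGCs arise outside the gonads, travel through the blood of the embryo, and settle in the developing gonads, where they keep part of the gene programme of pluripotent cells until they enter meiosis or mitotic arrest. Because their genome is passed to the next generation, germ cells are studied for how they repair DNA and how readily they die after damage. The repair systems usually told apart are base excision repair (BER) for single damaged bases, nucleotide excision repair (NER) for bulky lesions, mismatch repair (MMR) for replication errors, and, for broken strands, homologous recombination (HR), which copies an intact strand, and non-homologous end joining (NHEJ), which rejoins the ends directly.

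Total counts on genes ranged from 29512715 to 56255185 in PGCs, from 43511523 to 64953799 in CEFs, and from 60066862 to 67475925 in EGK.X blastoderms. The PGC libraries were closer to each other (Pearson r of log2 values across genes 0.997 to 0.998) than the CEF libraries were (0.987 to 0.994), and r between PGCs and CEFs was 0.828 to 0.841. No pair of replicates agreed within sampling noise. In the counts, the germ cell identity of the PGCs could be checked with only a few genes. Names were at hand only for the 154 genes that the study listed. NANOG and Pou5f3, which chicken germ cells express, were high in every PGC library, SYCP3, a protein of the meiotic chromosome axis, was called higher, and DMC1, the meiotic strand-exchange enzyme, was low in both groups. NANOG and Pou5f3 were higher still in EGK.X blastoderms, so they do not single out germ cells. The log2 fold change of SYCP3 was 1.04. Among the fits with a library left out, its call was lost without CEF replicate 2 or PGC replicate 2. Markers of fibroblasts, gonadal somatic cells and blood were not used here, so the share of other cells in either group was not measured. In such bulk libraries, fewer cells of a type and less RNA per cell cannot be told apart.

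A gene was called when the adjusted p of edgeR's quasi-likelihood test was under 0.05 and the log2 fold change was beyond 1 in either direction. By this rule 5387 genes (23.7% of those tested) were higher in PGCs and 4193 (18.5%) were lower. In all 42.2% of the genes tested differed between these cells, taken from embryos of the same stage before the CEFs were cultured. Among the 16322 genes that reached 10 counts in all PGC or in all CEF libraries the shares were 28.7% and 22.8%. The median log2 fold change was 3.29 among the higher genes and -2.38 among the lower ones, and 1564 higher genes against 721 lower genes lay beyond 5. Of the higher genes, 5359 had all PGC libraries above all CEF libraries, and of the lower genes 4044 had them all below, where the groups did not overlap for 34.5% and 30.5% of all genes. The genes called higher took 23.0% to 24.8% of the counts in PGCs and 2.19% to 2.40% in CEFs. Those called lower took 50.7% to 55.4% of the counts in CEFs and 13.8% to 14.2% in PGCs. Both sets were chosen from these same libraries, so that each group held more of its counts on its own set follows from the choice. Trimmed mean of M values (TMM) factors placed the median log2 fold change over the whole table at 0.05, whereas the library sizes alone placed it at 0.73. With the library sizes alone 75.1% of the calls were higher in place of 56.2%. A link between these shares of counts and the scaling was not tested.

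**Figure D1:**
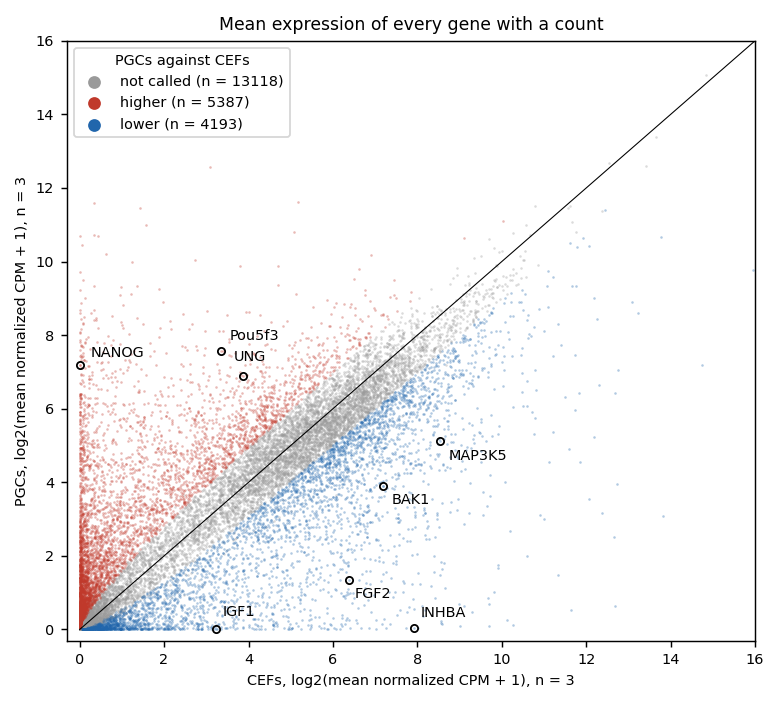
Mean level of every tested gene in CEFs (horizontal axis) and in PGCs (vertical axis), as log2 of the mean normalized read count scaled to library size (CPM) plus 1 over 3 libraries each. Points are genes, red if called higher in PGCs (5387), blue if called lower (4193) and grey if not called, the line marks equal levels, and 8 genes described in the text are named.

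A count in at least 1 library was found for 21347 genes in PGCs and for 20385 in CEFs, and 19571 genes were shared. In PGCs but not in CEFs 1776 genes had a count, and in CEFs but not in PGCs 814 did. Many of these were seen in very few reads, since 685 and 430 of them had at most 3 in the whole group. With 10 counts asked for in every PGC library and 0 in every CEF library, 282 genes remained, against 70 genes in the reverse direction. The 2 unnamed genes with the smallest p on the higher side, counting only genes read 100 times or more in each PGC library, were ENSGALG00000016690 and ENSGALG00000006565. The first had 95506, 46969 and 92991 reads in the PGC libraries and 3, 0 and 2 in the CEF libraries, a ratio of 35300 of the summed counts with an exact 95% interval of 15100 to 109000 that covers counting error only. It had 0, 1 and 0 reads in the EGK.X blastoderms, so these reads came almost wholly from the PGC libraries. The second had 20245, 10644 and 20697 reads in the PGC libraries and 50, 35 and 38 in the CEF libraries. The 2 on the lower side were ENSGALG00000033471, with 0.640, 0.594 and 0.649 normalized CPM in PGCs and 836, 838 and 792 in CEFs, and ENSGALG00000009052, with 38.3, 41.9 and 40.8 in PGCs and 2574, 2202 and 2389 in CEFs.

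More DNA repair genes were called higher in PGCs than lower. Of 106 tested genes of the 5 pathways, 19 (17.9%) were higher in PGCs and 5 (4.72%) were lower, where 23.7% and 18.5% of all genes were. Both shares were thus below those of all genes, and below the 28.7% and 22.8% of genes with 10 counts throughout a group. For the higher genes this order turned with the library sizes alone (43.4% of the list beside 34.8% of all genes) and with the adjusted p as the only criterion (34.9% beside 28.5%). The median log2 fold change of the list was 0.23 beside 0.05 for all genes, and with the library sizes alone it was 0.92 beside 0.73. By pathway, BER had 3 higher and 3 lower genes of 26, NER 4 and 1 of 38, MMR 3 and 0 of 19, NHEJ 3 and 0 of 10, and HR 8 and 1 of 39. Medians ran from 0.07 in NER over 0.15 in BER, 0.27 in HR and 0.33 in NHEJ to 0.37 in MMR, and several genes belong to more than one pathway.

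**Figure D2:**
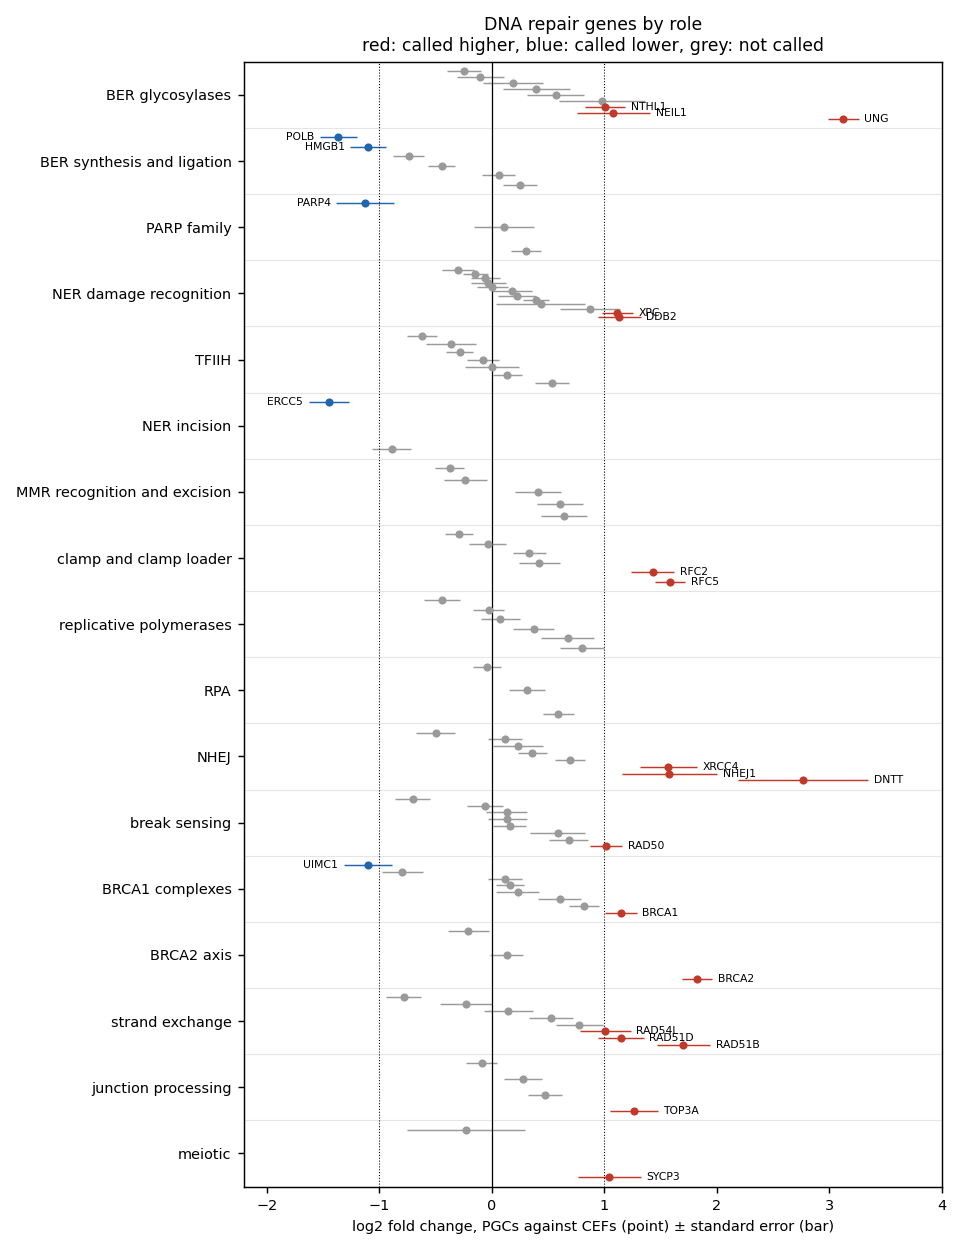
Log2 fold change of PGCs against CEFs for 100 DNA repair genes with a known role (point) with its standard error (bar), grouped by role from base removal at the top to meiotic recombination at the bottom. Dotted lines mark the threshold of 1, and most genes lie between them, with UNG (3.12), DNTT (2.77) and BRCA2 (1.83) farthest to the right.

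Among the glycosylases, which cut a damaged base from its sugar and so begin BER, 3 of 10 tested (30.0%) were higher in PGCs and none was lower, beside 23.7% and 18.5% of all genes. UNG, which removes uracil from DNA (chr15:6946607-6950966 on GRCg6a), was at 121, 122 and 110.4 normalized CPM in the PGC libraries and at 13.5, 12.4 and 14.6 in the CEF libraries. All PGC values lay far above all CEF values, with a log2 fold change of 3.12 (SE 0.14, adjusted p = 2.09e-09), an 8.72-fold difference. The EGK.X blastoderms had 120.2, 107 and 105, which overlapped the PGC values. NEIL1, for oxidised bases, had 7.94, 7.82 and 7.59 in PGCs and 3.45, 2.74 and 4.83 in CEFs (log2 fold change 1.08, SE 0.33, adjusted p = 0.0133), and NTHL1, for oxidised pyrimidines, had 19.2, 18.1 and 18.7 in PGCs and 11.0, 8.17 and 8.61 in CEFs (log2 fold change 1.01, SE 0.18, adjusted p = 0.000358). Both lay just past the threshold: without CEF replicate 2 their log2 fold changes were 0.91 and 0.93, and NTHL1 also missed it without CEF replicate 3 (0.96), PGC replicate 1 (0.98) or EGK.X blastoderm replicate 2 (1.00). NEIL3 lay just under the threshold at a log2 fold change of 0.98 (SE 0.38, adjusted p = 0.0463) and passed it without PGC replicate 2 (1.15), with DESeq2 (1.03), its size factors (1.03), upper-quartile factors (1.09) or the library sizes alone (1.65), and in a fit of the 6 PGC and CEF libraries (1.07). NEIL2 had too few reads in both groups for a fold change, with 0, 0 and 3 reads in PGCs and 0, 0 and 0 in CEFs, while the EGK.X blastoderms had 106, 108 and 130.

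Called genes in the group for gap filling and ligation, which are later steps of BER, were lower in PGCs. Of the 6 genes grouped under gap filling and ligation, 2 (33.3%) were lower in PGCs and none was higher, beside 18.5% and 23.7% of all genes. The 6 include HMGB1, which is described below as a chromatin protein. The BER list also holds PCNA (log2 fold change -0.04) and most of the 6 replicative polymerase genes, which were grouped apart. None of these was called, and the polymerase genes had a median of 0.22 beside 0.05 for all genes. The later steps as a whole thus had no common direction. POLB, the polymerase that fills the gap of a single base (chr22:3057041-3061680), was at 12.9, 11.6 and 13.6 normalized CPM in PGCs and 30.3, 36.1 and 31.8 in CEFs. The groups were apart, and the log2 fold change was -1.36 (SE 0.16, adjusted p = 1.37e-05). HMGB1, a chromatin protein that bends DNA, was at 154, 159 and 189.8 in PGCs and 441, 327 and 309 in CEFs (log2 fold change -1.10, SE 0.16, adjusted p = 6.29e-05), of which CEF replicate 1 was the highest, and without it the value was -0.92 and was not called. LIG3, a DNA ligase, and FEN1, the flap nuclease, had log2 fold changes of -0.74 and -0.45 with adjusted p of 0.00052 and 0.00656, within the threshold. PARP4, of the poly(ADP-ribose) polymerase family, was also lower, at 43.7, 41.1 and 58.6 in PGCs against 93.1, 118 and 102 in CEFs (log2 fold change -1.13, SE 0.26, adjusted p = 0.00231), whereas PARP1, the main sensor of strand breaks in that family, had a log2 fold change of 0.31 (SE 0.13, adjusted p = 0.071). With the library sizes alone POLB, HMGB1 and PARP4 kept their sign and were not called (-0.67, -0.42 and -0.44).

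Of 38 NER genes tested, 4 (10.5%) were higher in PGCs and 1 (2.63%) was lower, both below the 23.7% and 18.5% of all genes. The higher ones were 2 damage sensors and RFC2 and RFC5, given below with MMR, and the lower one was a nuclease. XPC, which finds distorted helices, was at 45.6, 47.8 and 52.1 normalized CPM in PGCs and 23.2, 22.8 and 21.2 in CEFs (log2 fold change 1.12, SE 0.14, adjusted p = 1.97e-05). DDB2, which binds ultraviolet lesions, was at 51.6, 51.1 and 45.1 in PGCs and 21.9, 20.4 and 25.1 in CEFs (log2 fold change 1.13, SE 0.19, adjusted p = 0.000251). Neither sensor overlapped between the groups. The other 10 damage recognition genes were not called, so that 16.7% of the 12 were higher. ERCC5, the nuclease that cuts 3' of the lesion (chr1:144193574-144208754), was at 22.0, 22.2 and 24.7 in PGCs and 67.5, 50.7 and 69.4 in CEFs (log2 fold change -1.45, SE 0.18, adjusted p = 2.02e-05). It was lower in every PGC library, and so was ERCC4, the nuclease subunit that cuts 5' of it, at a log2 fold change of -0.89 (SE 0.17, adjusted p = 0.000708), which passed the threshold without CEF replicate 3 (-1.01). ERCC5 had -0.77 with the library sizes alone and was not called there. None of the 7 genes of TFIIH, the complex that opens the helix, was called. ERCC8, which acts on lesions in transcribed genes and lies on the Z chromosome, had a log2 fold change of 0.87 (SE 0.27, adjusted p = 0.0136) and was called without CEF replicate 2 (1.21) and with the library sizes alone (1.57).

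Of 19 MMR genes tested, 3 (15.8%) were higher in PGCs and none was lower, so that the share of higher genes was below the 23.7% of all genes. PMS2, a subunit of the nuclease that cuts near a mismatch, was at a log2 fold change of -0.37 with an adjusted p of 0.0289, and the mismatch binders MSH6 and MSH3 were at 0.60 and 0.64, within the threshold. Among the calls were 2 subunits of the clamp loader, which NER, MMR and replication share. RFC5 was at 73.3, 77.4 and 76.3 in PGCs and 25.8, 21.9 and 27.9 in CEFs (log2 fold change 1.59, SE 0.14, adjusted p = 8.23e-07), and RFC2 at 62.5, 64.5 and 72.7 in PGCs and 27.0, 25.7 and 21.3 in CEFs (log2 fold change 1.43, SE 0.19, adjusted p = 3.79e-05). Both stood well apart in the libraries, but the other subunits were not called: RFC1, RFC3 and RFC4 had log2 fold changes of 0.34, 0.42 and -0.29, and PCNA, the clamp itself, had -0.04. None of the 6 genes of the replicative polymerases and none of the 3 RPA subunits, which coat single strands, was called.

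Of 10 NHEJ genes tested, 3 (30.0%) were higher in PGCs and none was lower, beside 23.7% and 18.5% of all genes. XRCC4, the scaffold for DNA ligase 4 (chrZ:62992672-63173370), was at 30.1, 30.0 and 39.7 normalized CPM in PGCs and 8.78, 15.9 and 8.99 in CEFs. CEF replicate 2 was the highest CEF library and still lay below every PGC library. The log2 fold change was 1.57 (SE 0.25, adjusted p = 0.000168), and 1.90 without CEF replicate 2. NHEJ1, which forms filaments with XRCC4, was at 4.81, 5.26 and 5.30 in PGCs and 1.34, 1.71 and 2.09 in CEFs (log2 fold change 1.58, SE 0.43, adjusted p = 0.00703). DNTT, a polymerase that adds bases without a template and is best known from lymphocytes (chr6:22168276-22256565), rested on few reads, with 48, 15 and 33 in PGCs and 6, 3 and 1 in CEFs, and had a log2 fold change of 2.77 (SE 0.58, adjusted p = 0.00135). It was not called by limma on the log2(normalized value + 1) scale (0.52), which damps genes with few reads. LIG4, the ligase that XRCC4 holds, went the other way within the threshold, at a log2 fold change of -0.50 (SE 0.17, adjusted p = 0.0276). The library sizes alone raised the median of all genes by 0.68, more than this fall, and the sign of LIG4 there was not tested. PRKDC, the kinase that senses broken ends, had a log2 fold change of 0.70 (SE 0.14, adjusted p = 0.000848).

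Of the 39 HR genes tested, the longest of the 5 lists, 8 (20.5%) were higher in PGCs and 1 (2.56%) was lower, beside 23.7% and 18.5% of all genes. BRCA2, a central factor of HR (chr1:175900477-175937209), was at 172, 154 and 172 normalized CPM in PGCs and 47.9, 41.8 and 50.6 in CEFs. No library of one group came near the other, and the difference was 3.54-fold (log2 fold change 1.83, SE 0.13, adjusted p = 1.72e-07). The EGK.X blastoderms had 160.2, 147 and 133. BRCA1, which acts in end resection and in several complexes, was at 224, 208 and 218 in PGCs and 105, 98.7 and 90.0 in CEFs (log2 fold change 1.15, SE 0.14, adjusted p = 1.57e-05), again without overlap. PALB2, which bridges BRCA1 and BRCA2, had a log2 fold change of 0.13 (SE 0.15, adjusted p = 0.465), and BARD1, the partner of BRCA1, had a log2 fold change of -0.79 (SE 0.18, adjusted p = 0.00238).

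Among the genes that support strand exchange, RAD51B (chr5:28602721-28945763) was at 25.9, 23.0 and 21.9 normalized CPM in PGCs and 7.41, 8.11 and 6.21 in CEFs (log2 fold change 1.70, SE 0.24, adjusted p = 5.17e-05). RAD51D was at 14.1, 16.2 and 16.5 in PGCs and 7.99, 6.93 and 6.16 in CEFs (log2 fold change 1.15, SE 0.20, adjusted p = 0.000366). Neither overlapped between the groups. RAD51C, XRCC2 and XRCC3, of the same family, were not called, with log2 fold changes of 0.53, 0.78 and -0.78. TOP3A, a topoisomerase that helps to dissolve joined strands, was at 37.2, 35.4 and 38.6 in PGCs and 14.9, 17.6 and 13.9 in CEFs (log2 fold change 1.26, SE 0.21, adjusted p = 0.000253). RAD50, of the complex that binds broken ends, RAD54L, a motor protein on DNA, and SYCP3 were called close to the threshold, at a log2 fold change of 1.02 (SE 0.15, adjusted p = 6.58e-05), 1.01 (SE 0.23, adjusted p = 0.00215) and 1.04 (SE 0.28, adjusted p = 0.00703). RAD50 missed it without CEF replicate 2 (0.91). RAD54L missed it without CEF replicate 3 (0.91), PGC replicate 1 (0.97), PGC replicate 3 (0.99) or EGK.X blastoderm replicate 2 (1.00), and SYCP3 without CEF replicate 2 (0.98) or PGC replicate 2 (0.97). UIMC1, which brings a BRCA1 complex to ubiquitin at breaks, was lower, at 11.0, 12.1 and 9.45 in PGCs and 21.8, 22.0 and 26.0 in CEFs (log2 fold change -1.10, SE 0.21, adjusted p = 0.000773), but was not called with upper-quartile factors (-0.97) or the library sizes alone (-0.41). DMC1 had 0.498, 0.351 and 0.376 in PGCs and 0.579, 0.280 and 0.571 in CEFs, with overlap and a log2 fold change of -0.23 (SE 0.53, adjusted p = 0.743).

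The apoptosis genes leaned towards CEFs. Of 22 tested, 2 (9.09%) were higher in PGCs and 10 (45.5%) were lower, where 23.7% and 18.5% of all genes were, and the median log2 fold change was -0.69. With the library sizes alone this median was 0.00 beside 0.73 for all genes. In that setting 5 genes (22.7%) were higher and 8 (36.4%) lower, beside 34.8% and 11.5% of all genes. Its distance from all genes was -0.74 with TMM factors and -0.73 without them. A change of scaling moves all genes by nearly the same amount, so this distance was bound to stay and is no check. The largest differences of the list were those of FAS and TNFRSF10B, and all 3 death receptors were lower in PGCs.

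FAS, the receptor of Fas ligand (chr6:20087175-20099497), was at 1.10, 0.944 and 1.06 normalized CPM in PGCs and 25.7, 22.9 and 24.8 in CEFs. Every CEF library was more than an order of magnitude above every PGC library, and FAS was 23.6-fold lower in PGCs (log2 fold change -4.56, SE 0.23, adjusted p = 6.3e-09). TNFRSF10B, a receptor of the TRAIL ligand (chr22:1415487-1422100), was at 4.41, 5.26 and 5.33 in PGCs and 89.3, 85.4 and 111 in CEFs, 19.1-fold lower (log2 fold change -4.25, SE 0.21, adjusted p = 4.68e-09). TNFRSF1A, a receptor of tumour necrosis factor, was at 10.4, 9.93 and 12.0 in PGCs and 56.1, 65.6 and 73.4 in CEFs (log2 fold change -2.59, SE 0.33, adjusted p = 2.19e-05). The called genes that carry the signal inward had smaller changes. CASP8 and CASP10, the initiator caspases of the receptor route and neighbours on chromosome 7, had log2 fold changes of -1.55 (SE 0.16, adjusted p = 3.49e-06) and -2.41 (SE 0.25, adjusted p = 4.51e-06). FADD, the adaptor between receptor and caspase, was at 31.0, 30.8 and 34.8 in PGCs and 64.9, 69.0 and 60.7 in CEFs (log2 fold change -1.01, SE 0.14, adjusted p = 4.08e-05). Its libraries did not overlap, but it lay on the threshold and was not called without CEF replicate 2 (-0.96), PGC replicate 1 (-0.99) or PGC replicate 2 (-0.99), nor with DESeq2 (-0.96) or upper-quartile factors (-0.89). With the library sizes alone FADD and CASP8 were not called (-0.32 and -0.86).

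On the mitochondrial route, BAK1, which forms pores in the outer membrane (chr26:4677456-4689316), was at 13.7, 16.1 and 12.3 normalized CPM in PGCs and 174, 108 and 150.3 in CEFs. The lowest CEF library was several times the highest PGC library, and BAK1 was 10.3-fold lower in PGCs (log2 fold change -3.37, SE 0.20, adjusted p = 2.83e-08). BCL2L1, which restrains such pores and so protects the cell, was lower too, at 30.3, 33.8 and 37.4 in PGCs and 118, 88.3 and 152 in CEFs (log2 fold change -1.82, SE 0.18, adjusted p = 3.28e-06). BCL2, with the same protective role, overlapped between the groups (log2 fold change -0.12, SE 0.27, adjusted p = 0.736). CASP9, the initiator caspase of this route, CYCS, the cytochrome c gene, and APAF1, the scaffold that joins them, were not called, at log2 fold changes of 0.26, 0.39 and 0.48.

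Of the apoptosis genes higher in PGCs, PMAIP1, a BH3-only protein that promotes pore formation and lies on the Z chromosome, was at 1.07, 1.19 and 1.15 normalized CPM in PGCs and 0.0998, 0.218 and 0.476 in CEFs, with 75, 44 and 67 reads against 5, 7 and 20. The groups did not overlap, and the log2 fold change was 2.10 (SE 0.53, adjusted p = 0.00459), but it was 2.88 without CEF replicate 3, and limma on the log2(normalized value + 1) scale did not call it (0.76). Among the stress kinases, MAP3K5, which responds to oxidative stress (chr3:55054006-55149738), was at 33.4, 29.5 and 37.8 in PGCs and 379.9, 302 and 436 in CEFs, 11.1-fold lower (log2 fold change -3.47, SE 0.17, adjusted p = 5.07e-09), and MAPK10 was at 0.768, 0.459 and 0.564 in PGCs and 4.65, 2.21 and 4.28 in CEFs (log2 fold change -2.62, SE 0.53, adjusted p = 0.000978). The related kinase MAPK8 lay on the other side within the threshold, at a log2 fold change of 0.79 (SE 0.13, adjusted p = 0.000209).

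**Figure D3:**
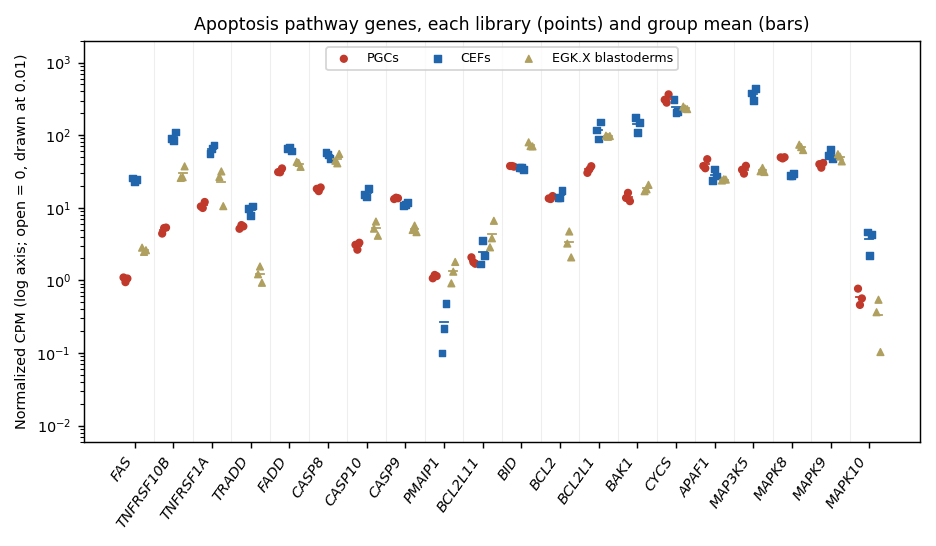
Normalized CPM of 20 of the 22 tested apoptosis genes in each library (log axis; red circles PGCs, blue squares CEFs, olive triangles EGK.X blastoderms) with the mean of each group as a bar. FAS, TNFRSF10B, BAK1 and MAP3K5 show the widest gaps between PGCs and CEFs, 10.3-fold to 23.6-fold, and PMAIP1 has the widest gap in the other direction among the genes drawn.

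Among the pluripotency genes the core factors were higher in PGCs, and the signalling genes called were lower except LIFR. Of 25 tested, 4 (16.0%) were higher in PGCs and 11 (44.0%) were lower, beside 23.7% and 18.5% of all genes, with a median log2 fold change of -0.88. With the library sizes alone the median was -0.19 beside 0.73 for all genes, and 6 genes were higher and 5 lower. These were 24% and 20% of the list, beside 34.8% and 11.5% of all genes. The share of higher genes thus stayed below that of all genes, and the share of lower genes above it.

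All 3 genes of the core network were higher. NANOG, a homeobox factor of pluripotent cells (chr1:75593243-75596024), was at 150.2, 146 and 140.4 normalized CPM in PGCs, and the CEF libraries held 2, 0 and 0 reads. The ratio of the summed counts was 9060 with an exact 95% interval of 2510 to 74800 that covers counting error only, and the adjusted p was 6.92e-11. The fitted log2 fold change, which depends on the prior count at so few reads, was 12.96, and 15.99 without CEF replicate 1, which held both reads. Pou5f3, the chicken counterpart of the Pou5f1 (Oct4) gene of mammals (chr17:823420-837030), was at 197, 207 and 157 in PGCs and 9.14, 8.11 and 10.5 in CEFs. It was thus read in every CEF library, unlike NANOG, and was 20.2-fold higher in PGCs (log2 fold change 4.34, SE 0.19, adjusted p = 1.94e-09). SOX2, their partner on DNA in mammals, was at 3.51, 3.59 and 3.14 in PGCs, with 7, 2 and 0 reads in the CEF libraries, and had a log2 fold change of 5.55 (SE 0.77, adjusted p = 5.2e-05). Its value rested on the few reads in CEFs and was 6.85 without CEF replicate 1.

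Among the other factors, MYC, a driver of growth and division (chr2:139734098-139738744), was lower at 15.0, 17.8 and 18.3 normalized CPM in PGCs and 70.6, 94.1 and 76.8 in CEFs (log2 fold change -2.24, SE 0.25, adjusted p = 8.37e-06), without overlap. KLF4 was above in every PGC library, at 3.56, 4.34 and 4.46 against 2.62, 2.52 and 2.47, but had a log2 fold change of 0.70 (SE 0.25, adjusted p = 0.0336) and did not pass the threshold on the fold, except with the library sizes alone (1.38). BMI1 and KAT6A, both regulators of chromatin, had a log2 fold change of -0.91 (SE 0.28, adjusted p = 0.0144) and -0.15 (SE 0.14, adjusted p = 0.375).

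The 4 largest falls of the list were those of ligands. INHBA, which encodes the subunit of activin A (chr2:50572648-50587618), was at 272, 201 and 251 normalized CPM in CEFs and had 4, 0 and 1 reads in the PGC libraries. The ratio of the summed counts was 8170 in favour of CEFs (exact 95% interval 3500 to 25200, counting error only; adjusted p = 1.92e-10). The fitted log2 fold change was -12.87, and -14.21 without PGC replicate 1, which held 4 of the 5 reads. IGF1, the insulin-like growth factor (chr1:55281097-55330373), had 434, 464 and 85 reads in the CEF libraries and 1, 0 and 0 in the PGC libraries, a ratio of 1310 with an interval of 235 to 51900. The fitted log2 fold change was -9.99, and it was -11.80 without PGC replicate 1, which held the single read, and -9.37 without CEF replicate 2. The CEF libraries differed widely among themselves for this gene, and the EGK.X blastoderms had 0, 0 and 3 reads, as few as PGCs. FGF2, a fibroblast growth factor, was at 2.02, 1.27 and 1.35 in PGCs and 85.7, 52.8 and 107 in CEFs (log2 fold change -5.71, SE 0.41, adjusted p = 1.33e-07), a 52.4-fold fall. BMP4, a bone morphogenetic protein, was at 0.981, 1.43 and 1.01 in PGCs and 8.07, 13.3 and 12.6 in CEFs (log2 fold change -3.32, SE 0.25, adjusted p = 2.51e-07). WNT3A was hardly read in either group, with 2, 1 and 4 reads in PGCs and 14, 2 and 4 in CEFs. Its libraries overlapped, and its log2 fold change of -1.84 (SE 0.69, adjusted p = 0.0378) was not called without CEF replicate 1 (-0.90), PGC replicate 1 (-1.56) or PGC replicate 2 (-1.70).

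The called receptors and transducers had smaller changes, and LIFR rose. FGFR1, a receptor of FGF2, was at 60.5, 62.9 and 50.5 normalized CPM in PGCs and 98.0, 131 and 212 in CEFs (log2 fold change -1.34, SE 0.26, adjusted p = 0.000755). CEF replicate 3 was the highest, and without it FGFR1 was not called (-0.98). BMPR1A, a receptor of BMP4, had a log2 fold change of -1.56 (SE 0.18, adjusted p = 9.36e-06), and IGF1R, the receptor of IGF1, lay within the threshold at a log2 fold change of -0.88 (SE 0.12, adjusted p = 5.68e-05). LIFR, the receptor of leukaemia inhibitory factor on the Z chromosome (chrZ:12007437-12057034), was at 103, 88.1 and 113 in PGCs and 41.4, 51.9 and 47.1 in CEFs. Its lowest PGC library was well above its highest CEF library (log2 fold change 1.12, SE 0.14, adjusted p = 2.84e-05). The next steps of that pathway were lower in PGCs, with JAK1, a kinase bound to the receptor, at 213, 206 and 211 against 631, 624 and 537 (log2 fold change -1.51, SE 0.14, adjusted p = 1.17e-06) and STAT3, the factor it activates, at 92.4, 99.3 and 91.1 against 205, 273 and 233 (log2 fold change -1.33, SE 0.21, adjusted p = 0.000161). AKT1, a kinase downstream of growth factors, had a log2 fold change of -1.61 (SE 0.13, adjusted p = 3.7e-07), whereas PIK3CA and MAPK3 had -0.46 and -0.32 and were not called. With the library sizes alone BMPR1A (-0.88), FGFR1 (-0.65), JAK1 (-0.82), STAT3 (-0.64) and AKT1 (-0.92) were not called.

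**Figure D4:**
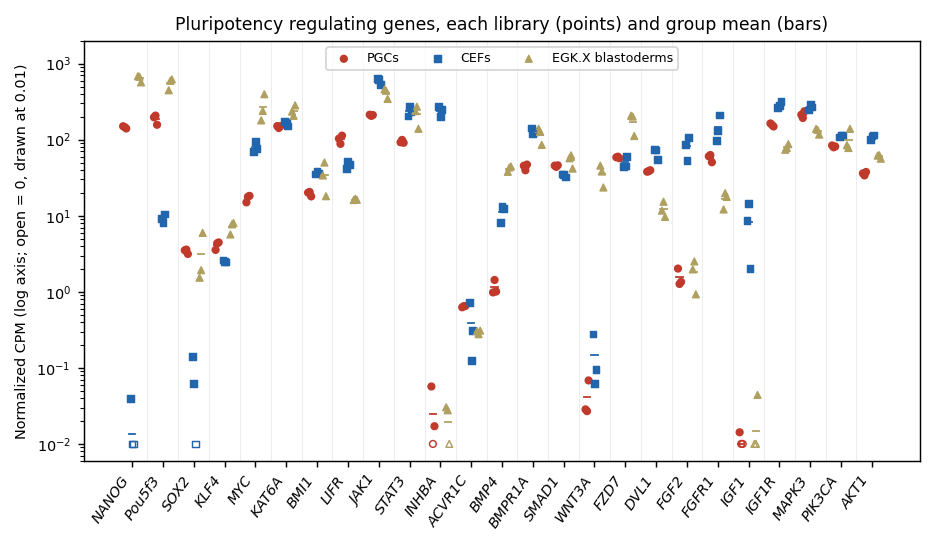
Normalized CPM of the 25 tested pluripotency regulating genes in each library (log axis; red circles PGCs, blue squares CEFs, olive triangles EGK.X blastoderms) with the mean of each group as a bar, and open symbols at 0.01 for libraries without a read. NANOG, Pou5f3 and SOX2 at the left are higher in PGCs than in CEFs, and INHBA, FGF2 and IGF1 are higher in CEFs.

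The EGK.X blastoderms place some of these differences. Their comparison with PGCs shares the PGC libraries with the one above, so the values are given side by side without a measure of likeness, and 23.4% and 18.5% of all genes were called higher and lower in PGCs in it. Of the 106 DNA repair genes tested, 7 were higher and 23 lower in PGCs than in EGK.X blastoderms, against 19 and 5 in the comparison with CEFs. The 7 are a share well below that of all genes, and the 23 are a share close to it. The glycosylase UNG and BRCA2 had log2 fold changes of 0.09 and 0.17 against EGK.X blastoderms (0.574 and 0.274 as adjusted p) beside 3.12 and 1.83 against CEFs. XRCC4, NHEJ1, RAD51B and SYCP3 were higher in PGCs than in either group, with 2.34, 3.11, 1.69 and 1.40 against EGK.X blastoderms. POLB and HMGB1 were lower in PGCs than in either, with -1.77 and -1.05.

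For apoptosis, the low level of BAK1 and MAP3K5 in PGCs was met in EGK.X blastoderms as well, at 16.9, 17.9 and 20.7 and 31.8, 35.4 and 31.1 normalized CPM, with log2 fold changes of PGCs against EGK.X blastoderms of -0.40 and 0.04 that were not called. FAS, TNFRSF10B and BCL2L1 were lower in PGCs than in EGK.X blastoderms too, at -1.34, -2.57 and -1.52. Among the pluripotency genes NANOG and Pou5f3 were lower in PGCs than in EGK.X blastoderms (-2.14 and -1.56), while LIFR and FGFR1 were higher (2.64 and 1.81). MYC and BMP4 were lower in PGCs than in either group, with -3.99 and -5.21 against EGK.X blastoderms.

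A pattern within the CEF libraries touched the genes on the Z chromosome, the sex chromosome of which male birds carry a pair and females a single copy. It was seen after the values were known. Of the 10 listed Z genes read 10 times or more in each library, CEF replicate 2 was the highest CEF library for 9, and it was the highest for 34 of the 132 listed genes on other chromosomes (25.8%). Its median log2 distance from the CEF mean was 0.50 for the Z genes and -0.05 for the others, and that of CEF replicate 3 was -0.26 and -0.02. In PGCs the medians of the Z genes lay between -0.08 and 0.10. PGC replicate 3 was likewise the highest PGC library for 9 of the 10 Z genes, and for 74 of the 132 others (56.1%). Its medians were 0.10 for the Z genes and 0.04 for the others. Of the 11 Z genes tested, 3 (27.3%) were higher in PGCs and none was lower, beside 23.7% and 18.5% of all genes. The higher ones were XRCC4, PMAIP1 and LIFR, and without CEF replicate 2 they kept their calls at 1.90, 2.00 and 1.20. The part of the sex of the pooled embryos in these values was not tested.

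**Figure D5:**
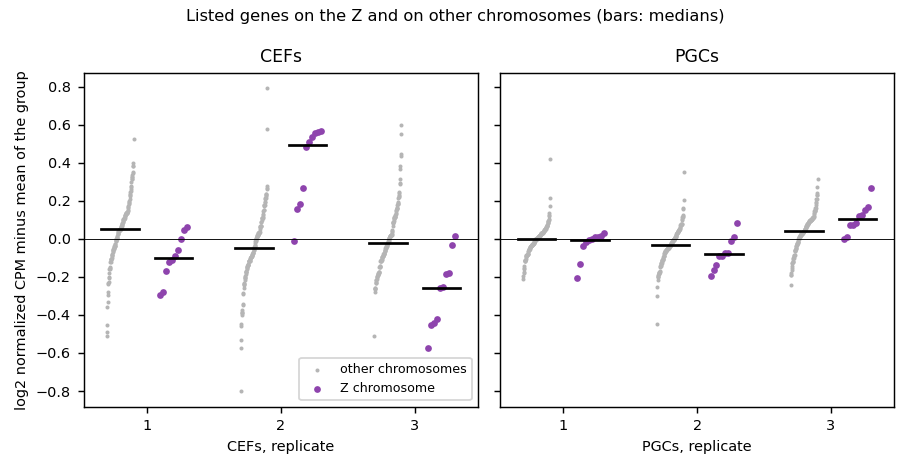
Distance of each library from the mean of its group, in log2 normalized CPM, for listed genes on the Z chromosome (purple, 10 genes) and on other chromosomes (grey, 132 genes), with medians as bars. CEF replicate 2 lies at 0.50 for the Z genes and near 0 for the others, and the PGC libraries lie within about 0.10 of 0 for both.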

How the data were processed

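Total RNA without ribosomal RNA was sequenced as 150 bp paired ends from stranded libraries. According to the methods and the submitters' processing notes, reads were trimmed (Trimmomatic 0.39), checked (FastQC 0.11.9), aligned to GRCg6a (HISAT2 2.2.0, SAMtools 1.10) and counted on Ensembl genes with HTSeq-count, whose version, strand setting and overlap mode are not given in the sources used here, which leaves overlapping and antisense genes uncertain. Deposited counts are whole reads per gene without normalization. The authors also deposited a signal matrix, with CPM after TMM, which was recomputed from the counts (largest deviation 3.25e-06%) and served only for an alternative. The 5 summary entries of the counting (46.6% to 51.5% of the records of a library) were left out.

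The 22698 genes with a count were fitted for all 9 libraries with edgeR 4.0.16 (R 4.3.3; TMM, prior count 0.125, quasi-likelihood test, Benjamini-Hochberg adjustment over all of them). Calls needed both an adjusted p below 0.05 and a log2 fold change past 1 in size. Standard errors were obtained by dividing the log2 fold change by the root of F. Folds are ratios of fitted or mean values, and with at most a few reads in a group the ratio of summed counts has an exact binomial interval. The study's list of DNA repair, apoptosis and pluripotency genes gave names and coordinates, and no identifier matched the chicken reference table. OGG1 had no count.

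Genes named were all list members called, NANOG, Pou5f3, SOX2, KLF4, MYC, members within 0.15 of the threshold and 2 unnamed genes a direction. Other members of a described role were named after their values were seen. Some members entered every fit and count but their own values are not reported here. Members, lists and roles were chosen with earlier results of these data known. Replicates came from separate pools of embryos or gonads. The tests were first tried on simulated data in which few genes changed, as many up as down. Here 42.2% of the genes tested were called, so the simulation does not cover how scaling acts on these data. Alternatives were DESeq2 1.42.0, limma 3.58.1 on log2(signal + 1), glmTreat, the likelihood ratio test, other scalings and filters, 6 libraries only, a replicate block, the adjusted p alone, and each library left out.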

Additional observations from a re-analysis of the deposited data

How the results depend on the processing

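No alternative reversed the sign of any of the 57 named genes that were followed, or gave a called gene the opposite call. Other genes named above were not followed. With the library sizes alone the median over all genes rose by 0.68, more than the falls of LIG4, FEN1 and PMS2. Whether the sign of such genes held was not tested. The pluripotency calls moved towards higher with the library sizes alone, as did those of all genes, as given above. Of 1070 fits of the 51 named genes that were called, 989 kept the call and 81 lost it, and 22 genes kept it in all of them. The 6 followed genes that were not called gained a call in 16 of 126 fits. Among the settings glmTreat changed the most calls of named genes (21 lost), followed by the library sizes alone (13 lost, 3 gained) and limma (9 lost). The log2 fold change had a median over all genes of 0.05 with TMM factors, 0.17 with upper-quartile factors and 0.73 with the library sizes alone. With the library sizes alone 34.8% of all genes were higher and 2616 (11.5%) were lower. Beside these, DNA repair had 46 higher (43.4%) and 0 lower genes, apoptosis 5 higher (22.7%), and pluripotency 5 lower (20%). Upper-quartile factors left 3 lower DNA repair genes (2.83%, beside 16.8% of all genes). With glmTreat, which tests against the threshold itself, 18.8% of all genes were higher and 13.6% lower. DNA repair then had 7 higher (6.6%) and 2 lower genes (1.89%), and apoptosis 1 higher (4.55%). The adjusted p alone gave 37 higher (34.9%) and 15 lower (14.2%) DNA repair genes and 4 higher apoptosis genes (18.2%). In that setting 28.5% of all genes were higher and 26.5% lower. A minimum of 10 counts gave 1 higher apoptosis gene (4.55%, beside 28.1% of all genes). Limma on the matrix, a scale on which genes with few reads change little, called 3431 genes (15.1%) higher and 13.6% lower. Of the apoptosis genes it called 0 higher and 9 (40.9%) lower. Left-out libraries gave 1 to 2 higher apoptosis genes and 4902 to 5512 higher genes in all. Genes detected only in PGCs numbered 2867 with a count in every replicate and 2823 with 10 counts in each, in place of 1776, since these rules ask for less in CEFs.

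Correlations of deviations between PGCs and CEFs of the same replicate number were -0.06, 0.07 and -0.10. Those of unlike number ran from -0.17 to 0.18. Deviations from the mean of 3 libraries depend on each other, so these values cannot settle whether samples were paired. The main fit took them as unpaired. With the number as a replicate block 9102 genes were called, 9021 of them among the 9580 called without it. No call of the 57 named genes that were followed changed. Depth limits the genes with few reads, such as DNTT, PMAIP1, SOX2 and WNT3A, and the causes of the changes with scaling were not tested.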
